A study of Mus musculus with 19 samples.

Results

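Integrins are the cell's receptors for the extracellular matrix, and laminins are the matrix proteins of the basement membrane that surrounds each muscle fibre. The genes described here are integrin subunits and laminin chains, taken by name from the protein-coding genes whose symbol is Itga or Itgb followed by a number (with Itgav added), or Lama, Lamb or Lamc followed by a number. The genes described number 32 among the 35598 genes that had a transcript in the files, of which 21882 are protein-coding. They were 13 integrin alpha, 9 integrin beta, 5 laminin alpha, 3 laminin beta and 2 laminin gamma genes. They were picked out by gene name and biotype, with earlier results of these data known, and the counts below cover these genes only.

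A working integrin is a pair of 1 alpha and 1 beta subunit, and the pair decides which matrix protein is bound. A laminin is a trimer of 1 alpha, 1 beta and 1 gamma chain, secreted as a cross-shaped molecule that polymerises at the cell surface. In skeletal muscle the integrin formed by the alpha 7 and beta 1 subunits holds the fibre to laminin, and inherited loss of the laminin alpha 2 chain or of integrin alpha 7 causes muscle disease.

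RNA was measured in 19 libraries of primary mouse hind-limb myoblasts, the dividing precursor cells that fuse into multinucleate myotubes. Cells were taken as proliferating myoblasts at 24 h in growth medium, as differentiated myotubes at 48 h, or as fused myotubes at 72 h. The genotype label WT covered 3, 3 and 4 libraries at these times, and the label Glud1KO, for cells lacking the mitochondrial glutamate dehydrogenase gene Glud1, covered 3, 2 and 4. How Glud1 was inactivated, in which cells of the animal, and the age of the mice are not given in the sources used here. Replicates are called biological in the labels, but whether each came from its own mouse or its own culture is not stated, so SDs and p-values measure the spread between these libraries.

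Libraries held 16168131 to 30742634 estimated counts. Levels are given as CPM, which are counts scaled to a common library size with TMM factors. Glud1 RNA did not separate the labels: it lay at 184 to 192 CPM in WT and 185.0 to 190.0 in Glud1KO myoblasts, at 102 to 112 and 96.6 to 103 at 48 h, and at 131 to 141 and 130.2 to 139 at 72 h. The names of the deposited files carry KO for both labels, and those of the Glud1KO libraries also carry a T that is not explained. For these reasons the Glud1KO libraries are called KO-labelled throughout, and a genotype difference and an unlabelled treatment cannot be told apart here. The 7 skeletal muscle markers summed to 1614 to 2037 CPM in myoblasts and to 19191 to 24756 CPM at 48 h and 72 h, most of it the embryonic myosin gene Myh3. Pax7, a marker of muscle stem cells in the same list, fell from 98.8 to 105 CPM in myoblasts to 2.13 to 11.3 CPM at the later times, while Myod1 lay at 645 to 719 CPM in myoblasts, 645 to 869 CPM at 48 h and 284 to 349 CPM at 72 h. Markers of other cell types stayed low: 5 fibroblast markers summed to at most 3.40 CPM with Dpt and Lum at 3 counts or fewer in every library, 5 leukocyte markers to at most 1.78 CPM with Cd74 and Csf1r at 3 counts or fewer, 4 adipocyte markers to at most 0.176 CPM, 5 Schwann cell markers to at most 3.00 CPM and 5 endothelial markers to at most 7.08 CPM. Of the leukocyte markers Cd68, of the fibroblast markers Pdgfra and of the endothelial markers Vwf reached a mean of 1 CPM in some group. The 5 pericyte and smooth muscle markers, 4 of which exceeded 1 CPM in some group, summed to 33.7 to 44.6 CPM in myoblasts, 73.4 to 83.8 CPM at 48 h and 168 to 182 CPM at 72 h. Abcc9 alone carried the rise, from 1.21 to 2.53 CPM in myoblasts to 166 to 180.4 CPM at 72 h. The other 4 summed to 32.0 to 42.2 CPM in myoblasts, almost all of it Rgs5, and to 1.70 to 2.45 CPM at 48 h and 72 h, with Kcnj8 at 3 counts or fewer in every library. The part of these markers in the changes below was not tested.

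The cells expressed 21 of the 32 genes, taking as expressed a gene that passed the filter on low counts and had a mean of at least 1 CPM in some group. These were 14 integrin subunits (9 alpha, 5 beta) and 7 laminin chains (2 alpha, 3 beta, 2 gamma). The filter removed 6 genes. Among them were Itga2 and Itga11, which encode collagen-binding subunits, Itgb2, the beta subunit of leukocyte integrins, and Lama3 and Lama4, found mainly in epithelial and vascular basement membranes. None of these 5 exceeded 7 estimated counts in any library, and Itgb2l had 0 counts in all 19, which allows up to 0.0979 to 0.186 CPM on the library's total (3 counts, counting error only). A further 5 genes passed the filter but stayed below a mean of 1 CPM in every group: Itga1, Itga8, Itgb3, Itgb7 and Lama1. Lama1, a chain of embryonic basement membranes, had 5 counts over the 3 WT myoblast libraries and 34 over the 4 WT fused libraries, a ratio of 7.09 at equal depth (95% exact interval 2.76 to 23.2, counting error only).

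Most integrin and laminin genes changed between stages, as did most genes of these cells. Of the 26 members tested, 20 differed between WT myoblasts and WT differentiated myotubes, 14 higher and 6 lower, where 85% of all 15123 genes tested differed, 42.4% higher and 42.6% lower (edgeR quasi-likelihood test, Benjamini-Hochberg adjusted p under 0.05 over all genes). From 48 h to 72 h 19 differed, 7 higher and 12 lower, against 75.1% of all genes, 37.4% higher and 37.7% lower. From 24 h to 72 h 23 differed, 13 higher and 10 lower, against 85.5% of all genes, 42.2% higher and 43.4% lower. The median log2 fold change of the 26 was 0.48 from 24 h to 48 h, beside 0.02 over all genes. It was -0.22 from 48 h to 72 h (all genes -0.01) and 0.35 from 24 h to 72 h (all genes -0.01). The shares called in either direction are near those of all genes, so these totals say nothing particular about the members, and the split between higher and lower was not tested against that of all genes. In these bulk libraries fewer cells with an RNA and less of it per cell cannot be told apart. In the KO-labelled libraries 20 members differed from 24 h to 48 h, 13 higher and 7 lower, against 83.7% of all genes, 41.3% higher and 42.5% lower. From 48 h to 72 h 16 differed, 7 higher and 9 lower, against 70.2% of all genes, 35.8% higher and 34.4% lower. From 24 h to 72 h 24 differed, 14 higher and 10 lower, against 87.2% of all genes, 42.7% higher and 44.5% lower.

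**Figure D1:**
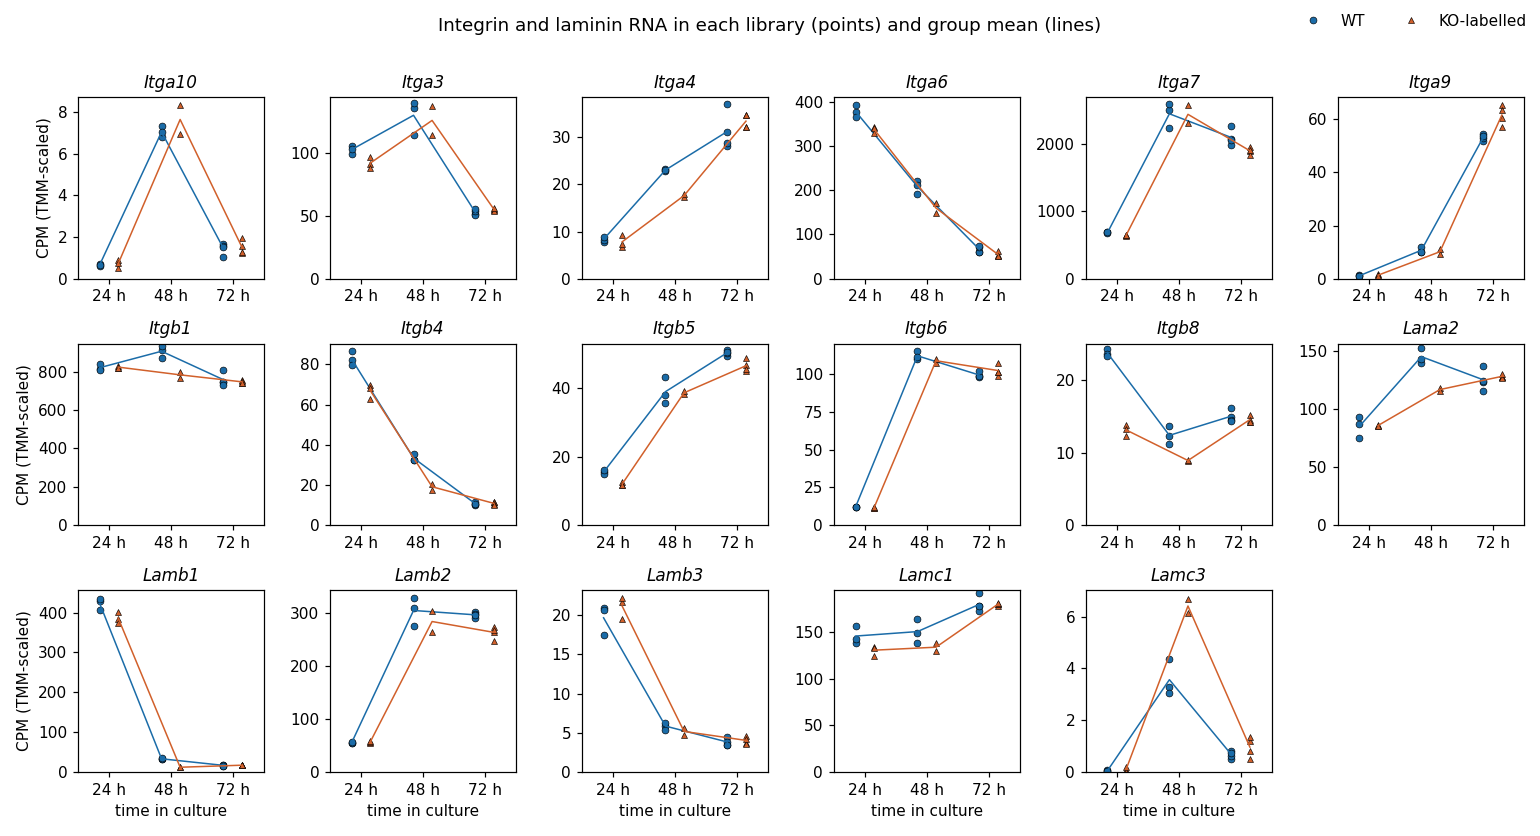
CPM of 17 integrin and laminin genes (vertical axis, linear from 0, a separate scale for each gene) at 24 h, 48 h and 72 h in culture; each point is 1 library, circles WT and triangles KO-labelled, and lines join group means. Itga7, Itgb6 and Lamb2 stand at 24 h well below 48 h, Lamb1 and Itga6 fall, and Itga10 and Lamc3 peak at 48 h.

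Itga7, the laminin-binding alpha subunit of muscle, was the integrin RNA with the highest mean TPM from 48 h on. WT myoblasts held 689.7, 673 and 693 CPM, WT differentiated myotubes 2245, 2512 and 2607 CPM and WT fused myotubes 2085, 1996, 2057 and 2268 CPM. KO-labelled libraries held 638, 649 and 647 CPM at 24 h, 2314 and 2579 CPM at 48 h and 1954, 1902, 1842 and 1918 CPM at 72 h. Every myoblast library lay below every myotube library, and the 48 h and 72 h values overlapped in WT but not in KO-labelled libraries. The log2 fold change from 24 h to 48 h was 1.84 ± 0.054 (SE, adjusted p 7.82e-22) in WT and 1.92 ± 0.058 (SE, adjusted p 1.58e-21) in KO-labelled libraries. From 48 h to 72 h it was -0.22 ± 0.049 (SE, adjusted p 0.000183) in WT and -0.36 ± 0.055 (SE, adjusted p 1.66e-06) in KO-labelled libraries.

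Itga7 is also spliced: a choice between alternative exons changes the part of the extracellular domain that bears on laminin binding. In the GENCODE M21 annotation, from which the sequences were taken, ENSMUST00000218290 and ENSMUST00000099112 share all other coding exons and, in their coding sequence, differ only in exon 5, with both forms of it on the plus strand of chromosome 10 in GRCm38. Their coding lengths are 3420 and 3408 bases, and their whole lengths, 4020 and 4013 bases, differ in untranslated sequence too. The exons are shown because they separate the Itga7 forms compared here. The upstream exon is chr10:128941445-128941576 (132 bases) and the downstream one chr10:128941822-128941941 (120 bases). Both lengths are multiples of 3, so that either keeps the reading frame, and a global alignment matched 72 bases over 146 columns.
Itga7 upstream exon: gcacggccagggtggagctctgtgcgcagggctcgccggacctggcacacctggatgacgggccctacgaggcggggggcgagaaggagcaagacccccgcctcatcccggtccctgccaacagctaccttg
Itga7 downstream exon: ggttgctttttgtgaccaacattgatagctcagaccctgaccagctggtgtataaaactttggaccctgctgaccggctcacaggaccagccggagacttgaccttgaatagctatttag

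The transcript with the upstream exon carried a minor share of Itga7 counts that was lowest in fused myotubes. Its share was 17.8%, 16.1% and 16.5% of the gene's estimated counts in WT myoblasts, 23.5%, 21.9% and 23.5% at 48 h and 5.89%, 5.55%, 6.32% and 6.96% at 72 h. In KO-labelled libraries the shares were 15.9%, 15.8% and 15.4%, 19.1% and 18.3% and 5.62%, 6.05%, 5.01% and 6.49%. At 72 h all 8 libraries lay below all 24 h and 48 h libraries, and at 48 h both KO-labelled libraries lay below all WT ones. The transcript with the downstream exon carried 80.8% ± 0.505 (SD, n = 3) of the counts in WT myoblasts, 65.01% ± 0.274 (SD, n = 3) at 48 h and 84.4% ± 0.421 (SD, n = 4) at 72 h. Its WT difference between 72 h and 24 h was 3.66 percentage points by counts but -10.1 by TPM, so its direction depended on the measure. For the transcript with the upstream exon the difference was -10.6 points by both. This pair of transcripts fell outside the rule for naming transcripts and was chosen after the values were seen, so no test is given.

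**Figure D2:**
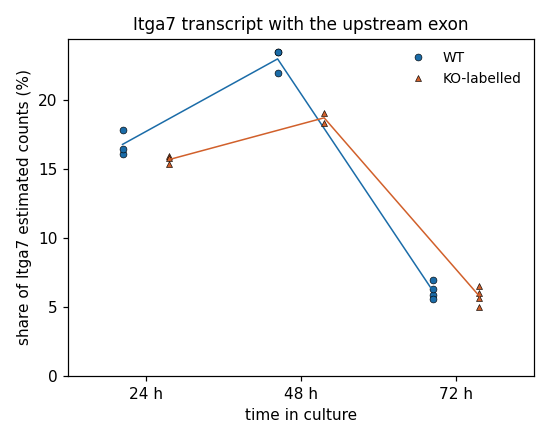
Share of Itga7 estimated counts (percent, vertical axis from 0) assigned to the transcript with the upstream exon, at 24 h, 48 h and 72 h; each point is 1 library, circles WT and triangles KO-labelled, and lines join group means. The 72 h libraries lie between 5.01% and 6.96%, below all others.

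Itga6, a laminin-binding subunit widespread in epithelia and stem cells, moved the other way. WT libraries held 376, 394 and 366 CPM at 24 h, 192, 220.2 and 212 CPM at 48 h and 59.8, 60.8, 70.9 and 72.99 CPM at 72 h. KO-labelled ones held 343, 328 and 341 CPM, then 149 and 170.2 CPM, then 50.4, 54.4, 63.2 and 51.5 CPM. Here and below, sets of values given one after another are for 24 h, 48 h and 72 h in that order. The 3 stages did not overlap under either label, and the WT log2 fold change from 24 h to 72 h was -2.52 ± 0.066 (SE, adjusted p 4.22e-23).

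Because Itga7 rose while Itga6 fell, the make-up of the alpha subunits shifted. Shares were taken on TPM, which is scaled for transcript length, so that genes can be compared. Itga7 was 45.8% ± 0.717 (SD, n = 3) of alpha-subunit TPM in WT myoblasts, 83.8% ± 0.309 (SD, n = 3) at 48 h and 87.7% ± 0.643 (SD, n = 4) at 72 h. Itga6 was 35.4% ± 1.17 (SD, n = 3), then 7.97% ± 0.144 (SD, n = 3), then 3.15% ± 0.202 (SD, n = 4) at the same times. Much of this TPM lies on transcripts that are non-coding or shorter than 1000 bases: 46.6% to 58.5% of it in a library for Itga6 and 8.53% to 39.4% for Itga7. Over the other transcripts alone, an alternative added after the data were seen, Itga6 was 22.6% ± 0.737 (SD, n = 3), 5.78% ± 0.355 (SD, n = 3) and 2.25% ± 0.274 (SD, n = 4), and Itga7 was 55.3% ± 1.19 (SD, n = 3), 83.3% ± 0.403 (SD, n = 3) and 87.3% ± 0.429 (SD, n = 4). In the exact two-sided permutation test of 72 h against 24 h in WT, both differences gave an adjusted p of 0.0357 over 10 shares compared. The p before adjustment was 0.0286, the smallest that 4 against 3 libraries can give. The KO-labelled shares at 72 h were 86.8% ± 0.559 (SD, n = 4) for Itga7 and 2.95% ± 0.307 (SD, n = 4) for Itga6.

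Itga9, which pairs with beta 1 and binds tenascin-C and osteopontin, had the largest rise of the expressed integrin subunits from 24 h to 72 h. It lay at 1.20, 1.04 and 1.07 CPM in WT myoblasts, 10.1, 11.97 and 9.998 CPM at 48 h and 51.7, 53.04, 54.3 and 53.7 CPM at 72 h. KO-labelled values were 1.60, 1.34 and 0.916 CPM, 9.14 and 11.1 CPM and 57.1, 60.5, 65.2 and 63.5 CPM. The stages were fully separated, with a WT log2 fold change from 24 h to 72 h of 5.58 ± 0.11 (SE, adjusted p 2.42e-26).

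Itga4, the fibronectin- and VCAM1-binding subunit, also rose at both steps. WT libraries held 7.84, 8.26 and 8.92 CPM, 23.3, 22.8 and 23.02 CPM and 28.1, 28.7, 31.1 and 37.05 CPM at the 3 times, and KO-labelled ones 6.73, 9.26 and 7.43 CPM, 17.3 and 17.98 CPM and 32.1, 34.6, 34.8 and 32.2 CPM. The WT log2 fold change was 1.46 ± 0.099 (SE, adjusted p 1.37e-13) from 24 h to 48 h and 0.45 ± 0.080 (SE, adjusted p 1.73e-05) from 48 h to 72 h.

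Itga10, a collagen-binding subunit best known from cartilage, peaked at 48 h. Its WT values were 0.703, 0.605 and 0.668 CPM, 6.78, 7.31 and 7.04 CPM and 1.64, 1.59, 1.05 and 1.52 CPM, and its KO-labelled values 0.917, 0.491 and 0.753 CPM, 6.95 and 8.33 CPM and 1.57, 1.22, 1.28 and 1.93 CPM. All 48 h libraries lay above all others, with WT log2 fold changes of 3.40 ± 0.19 (SE, adjusted p 1.33e-15) up to 48 h and -2.26 ± 0.16 (SE, adjusted p 6.07e-13) after it. Shares of its transcripts ENSMUST00000029744 and ENSMUST00000119365, which are 5044 and 5035 bases long, rested on few counts outside 48 h, with 14 to 32 counts of the gene in a myoblast library and 17 to 37 in a fused library. The first carried 36.4% ± 2.32 (SD, n = 3) of the gene's counts in WT myoblasts and 46.7% ± 50.3 (SD, n = 3) in KO-labelled ones, where the libraries ran from 0% to 100%. At 48 h it carried 92.1% to 100% in all 5 libraries. At 72 h its share was 42.5% ± 2.34 (SD, n = 4) under the KO label against 99.3% ± 1.42 (SD, n = 4) under WT. The differences between WT 72 h and 24 h and between labels at 72 h each gave an adjusted p of 0.0857 over 18 transcript differences (exact two-sided permutation test).

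Itga3, a laminin-binding subunit, was highest at 48 h and lowest at 72 h. WT values were 99.3, 106 and 103 CPM, 115, 136 and 140.2 CPM and 51.8, 50.3, 53.5 and 55.1 CPM, and KO-labelled values 96.6, 91.4 and 87.9 CPM, 114 and 138 CPM and 54.8, 55.4, 54.1 and 56.1 CPM. The fall from 48 h to 72 h in WT was -1.30 ± 0.060 (SE, adjusted p 7.52e-17). The smaller rise before it, 0.34 ± 0.060 (SE, adjusted p 8.2e-06), did not pass with scaling by library size alone or with an offset for effective transcript length (adjusted p up to 0.132).

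Itga3 also changed in its transcripts. ENSMUST00000120375 and ENSMUST00000001548, with coding lengths of 3204 and 3159 bases, differ in coding sequence near the end of the gene. The coding exon part of ENSMUST00000001548 that is not among those of ENSMUST00000120375 is shown. Whether other Itga3 transcripts hold it was not checked. It lies at chr11:95046483-95046590 on the minus strand of GRCm38, in exon 25 of ENSMUST00000001548.
Itga3 coding end: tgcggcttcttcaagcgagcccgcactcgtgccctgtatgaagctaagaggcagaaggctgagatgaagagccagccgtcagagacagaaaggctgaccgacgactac

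The share of Itga3 counts on ENSMUST00000120375 was 4.01%, 2.09% and 0% in WT myoblasts, 14.5%, 15.4% and 13.5% at 48 h, and 11.2%, 19.5%, 49.7% and 14.4% at 72 h. KO-labelled libraries gave 4.83%, 2.39% and 0.000319% at 24 h, 10.4% and 13.6% at 48 h, and 20.997%, 11.99%, 29.5% and 33.5% at 72 h. All myotube libraries lay above all myoblast libraries, and the 72 h values were widely spread. The difference between WT 72 h and 24 h was 21.7 percentage points, with an exact two-sided permutation p of 0.0857 (adjusted p 0.171 over 18 transcript differences), and 12.98 points without WT fused replicate 3.

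The remaining expressed alpha subunits were Itga5, the fibronectin receptor subunit, Itgav, which pairs with several beta subunits to bind RGD motifs, and Itga2b, known from platelets. Itga5 fell from 82.4 to 83.4 CPM in WT myoblasts to 59.1 to 65.5 CPM in WT fused myotubes (log2 fold change -0.43 ± 0.039 (SE, adjusted p 6.01e-11)). Its rise from 24 h to 48 h, 0.20 ± 0.040 (SE, adjusted p 5.01e-05), turned to -0.05 with scaling by library size alone. Itgav lay at 123 to 131 CPM at 24 h in WT, fell to 70.5 to 80.97 CPM at 48 h and rose to 86.7 to 97.8 CPM at 72 h. In KO-labelled libraries it went from 124 to 132 CPM to 59.3 to 62.2 CPM and 87.2 to 92.7 CPM. Itga2b was low and rose from 0.648 to 1.27 CPM in WT myoblasts to 2.83 to 3.42 CPM in WT fused myotubes, a log2 fold change of 1.76 ± 0.19 (SE, adjusted p 1.26e-09).

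Itgb1, the common partner of most alpha subunits, was the most abundant beta subunit at all stages by TPM and the least changed of those expressed from 24 h to 72 h. WT libraries held 815, 839.7 and 806 CPM, 869, 913 and 936 CPM and 745, 746, 731 and 808 CPM, and KO-labelled ones 829, 820.3 and 821 CPM, 766 and 800.1 CPM and 738, 754, 752 and 742 CPM. The WT log2 fold change from 24 h to 72 h was -0.11 ± 0.038 (SE, adjusted p 0.00671), with overlapping groups, and it turned to 0.16 with an offset for effective transcript length. The change from 24 h to 48 h, 0.14 ± 0.040 (SE, adjusted p 0.00188), turned to -0.11 with scaling by library size alone. The transcript ENSMUST00000124826, annotated as subject to nonsense-mediated decay, carried 19.7% ± 1.94 (SD, n = 3) of Itgb1 counts in WT myoblasts and 9.22% ± 1.36 (SD, n = 4) in WT fused myotubes. The protein-coding ENSMUST00000090006 carried 80.2% ± 1.95 (SD, n = 3) and 86.6% ± 1.41 (SD, n = 4). Both fell outside the rule for naming transcripts, so no test is given. The Itgb1 share of beta-subunit TPM was 91.7% ± 0.389 (SD, n = 3) in WT myoblasts and 86.7% ± 0.629 (SD, n = 4) in WT fused myotubes (adjusted p 0.0357, exact permutation test). Over coding transcripts of at least 1000 bases it was 92.2% ± 0.370 (SD, n = 3) and 83.6% ± 0.650 (SD, n = 4). Coding transcripts in these shares are all with an annotated coding sequence, so ENSMUST00000124826, with 174 coding bases, is among them.

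Itgb6, which pairs only with the alpha v subunit and is known from epithelia as an activator of TGF-beta, was the beta subunit with the largest rise. WT values were 12.2, 12.02 and 11.9 CPM, 109.9, 115 and 111 CPM and 98.6, 97.8, 98.6 and 102 CPM, and KO-labelled values 11.3, 11.3 and 12.3 CPM, 107 and 109.9 CPM and 98.4, 102, 107 and 101 CPM. Every myotube library stood more than 7-fold above every myoblast library. The WT log2 fold change to 48 h was 3.22 ± 0.047 (SE, adjusted p 1.23e-28), and the share of beta-subunit TPM went from 1.15% ± 0.140 (SD, n = 3) at 24 h to 7.25% ± 0.242 (SD, n = 4) at 72 h (adjusted p 0.0357, exact permutation test).

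Itgb5, a further partner of alpha v, rose at both steps. It lay at 15.6, 14.8 and 16.1 CPM, 35.8, 37.9 and 43.2 CPM and 49.5, 50.3, 51.000 and 50.6 CPM in WT libraries and at 12.6, 11.7 and 11.8 CPM, 38.2 and 39.05 CPM and 48.7, 46.7, 45.05 and 45.6 CPM in KO-labelled libraries. The 3 stages did not overlap within a label, and the WT log2 fold change from 24 h to 72 h was 1.70 ± 0.056 (SE, adjusted p 1.01e-20). Its transcript ENSMUST00000069345 carried 23.8% ± 6.08 (SD, n = 4) of the gene's counts in WT fused myotubes and 35.7% ± 2.13 (SD, n = 4) in KO-labelled ones, without overlap (adjusted p 0.0857, exact two-sided permutation test).

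Itgb4, the partner of alpha 6 in epithelial hemidesmosomes, fell at both steps, as Itga6 did. WT values were 81.99, 79.5 and 86.6 CPM, 32.3, 32.4 and 35.7 CPM and 10, 10.5, 11.7 and 10.5 CPM, and KO-labelled values 69.98, 68.5 and 62.9 CPM, 17.6 and 20.6 CPM and 11.6, 11.3, 10.5 and 10.1 CPM. The stages were separate under both labels, with a WT log2 fold change from 24 h to 72 h of -2.96 ± 0.062 (SE, adjusted p 1.81e-25).

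Itgb8, which pairs with alpha v and also activates TGF-beta, had its highest values in WT myoblasts. WT libraries held 24.3, 23.6 and 23.3 CPM, 12.3, 11.2 and 13.7 CPM and 14.98, 16.2, 14.6 and 14.4 CPM. KO-labelled libraries held 13.9, 12.2 and 13.3 CPM, 8.82 and 9.02 CPM and 15.2, 14.3, 14.6 and 14.2 CPM. All 3 KO-labelled myoblast libraries lay below all WT ones, while the 72 h libraries overlapped. The WT log2 fold change from 24 h to 72 h was -0.66 ± 0.063 (SE, adjusted p 1.52e-10). In KO-labelled libraries it was 0.15 ± 0.067 (SE, adjusted p 0.0451), which turned to -0.18 with scaling by library size alone.

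The laminin alpha chains expressed were Lama2, the chain of the muscle fibre basement membrane, and Lama5, a widespread chain. Lama2 lay at 75.3, 93.3 and 87.7 CPM, 139.8, 144 and 153 CPM and 124, 116, 124 and 138 CPM in WT libraries and at 85.7, 86.6 and 85.9 CPM, 119 and 116 CPM and 128, 128, 127 and 131 CPM in KO-labelled libraries. Its WT rise to 48 h was 0.77 ± 0.057 (SE, adjusted p 9.2e-13), with no overlap between the groups. Lama5 stayed between 84.6 and 121 CPM in all 19 libraries and did not pass the test in any WT stage comparison (-0.08 ± 0.069 SE, adjusted p 0.302, from 24 h to 72 h). In KO-labelled libraries it was lower at 72 h than at 24 h (-0.25 ± 0.069 SE, adjusted p 0.00179).

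The shares of the alpha chains depended on the measure. By TPM, Lama2 was 53.2% ± 3.46 (SD, n = 3) of alpha-chain TPM in WT myoblasts and 58.2% ± 2.64 (SD, n = 4) in WT fused myotubes, which did not pass the exact permutation test (adjusted p 0.143). With counts divided by the effective length of the longest coding transcript, a measure added after the data were seen, it was 55.6% ± 1.79 (SD, n = 3) and 65.9% ± 0.595 (SD, n = 4) (adjusted p 0.0286). Non-coding or short transcripts carried 18.8% to 60.5% of Lama5 TPM in a library and 8.24% to 16.8% of Lama2 TPM. Over coding transcripts of at least 1000 bases the Lama2 share was 59.2% ± 1.90 (SD, n = 3) and 68.2% ± 1.28 (SD, n = 4) (adjusted p 0.0286).

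The laminin beta chains showed the largest change in shares of the 4 classes compared, which were the alpha and beta subunits of integrins and the alpha and beta chains of laminins. Lamb1, the beta 1 chain of embryonic and most adult laminins, fell from 405, 429 and 435 CPM in WT myoblasts to 31.6, 31.7 and 35.3 CPM at 48 h and 17.4, 15.7, 16.2 and 16.03 CPM at 72 h. Lamb2, the beta 2 chain, which is concentrated at neuromuscular junctions and in kidney, rose from 54.3, 54.8 and 55.9 CPM to 275, 310.5 and 329.5 CPM and 302, 291, 298 and 296 CPM. No myoblast library overlapped a myotube library for either gene. Log2 fold changes from 24 h to 48 h in WT were -3.68 ± 0.046 (SE, adjusted p 9.35e-30) for Lamb1 and 2.47 ± 0.057 (SE, adjusted p 3.71e-24) for Lamb2.

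The KO-labelled libraries also went from mostly Lamb1 to mostly Lamb2 by 48 h, with less Lamb1 left at 48 h than in WT. Lamb1 lay at 402, 383 and 374 CPM in KO-labelled myoblasts, 11.7 and 11.6 CPM at 48 h and 16.4, 16.8, 16.6 and 17.5 CPM at 72 h. Lamb2 lay at 55.5, 55.8 and 57.8 CPM, 264 and 304 CPM and 274, 265, 247 and 268 CPM. From 48 h to 72 h Lamb1 fell further in WT, with a log2 fold change of -1.01 ± 0.055 (SE, adjusted p 3.57e-15), and rose in KO-labelled libraries, with one of 0.53 ± 0.080 (SE, adjusted p 1.71e-06).

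On TPM, Lamb1 made up 81.8% ± 0.753 (SD, n = 3) of beta-chain RNA in WT myoblasts, 8.46% ± 1.07 (SD, n = 3) at 48 h and 4.61% ± 0.371 (SD, n = 4) at 72 h. Lamb2 made up 13.5% ± 1.04 (SD, n = 3), 88.98% ± 0.887 (SD, n = 3) and 93.7% ± 0.432 (SD, n = 4). Both differences between 72 h and 24 h gave an adjusted p of 0.0357 (exact two-sided permutation test). In KO-labelled libraries Lamb1 was at 79.4% ± 0.692 (SD, n = 3), 2.94% ± 0.0072 (SD, n = 2) and 4.76% ± 0.369 (SD, n = 4). Lamb3, a chain of epithelial laminin, was a minor part of the class and fell from 17.5, 20.9 and 20.6 CPM to 5.88, 5.36 and 6.30 CPM and 4.47, 3.49, 3.82 and 3.46 CPM in WT, a log2 fold change of -2.36 ± 0.099 (SE, adjusted p 1.97e-18). Its KO-labelled values were 21.7, 19.6 and 22.2 CPM, 5.56 and 4.77 CPM and 3.70, 4.62, 3.58 and 4.20 CPM.

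The counts of Lamb3 were split among 3 transcripts with the same coding length of 3504 bases, on 55 to 98 counts of the gene in a fused library. ENSMUST00000159955 carried 88.4% ± 4.04 (SD, n = 3) in WT myoblasts and 33.6% ± 29.1 (SD, n = 4) in WT fused myotubes, and was listed at 0 in all 4 KO-labelled fused libraries. ENSMUST00000194677 went from 6.04% ± 1.09 (SD, n = 3) to 59.9% ± 22.7 (SD, n = 4) in WT. Neither WT difference passed the exact two-sided permutation test (adjusted p 0.129 each), and the WT fused libraries were widely spread. ENSMUST00000016315 carried 5.24% ± 10.5 (SD, n = 4) in WT fused myotubes and 41.98% ± 9.17 (SD, n = 4) in KO-labelled ones, without overlap (adjusted p 0.0857).

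**Figure D3:**
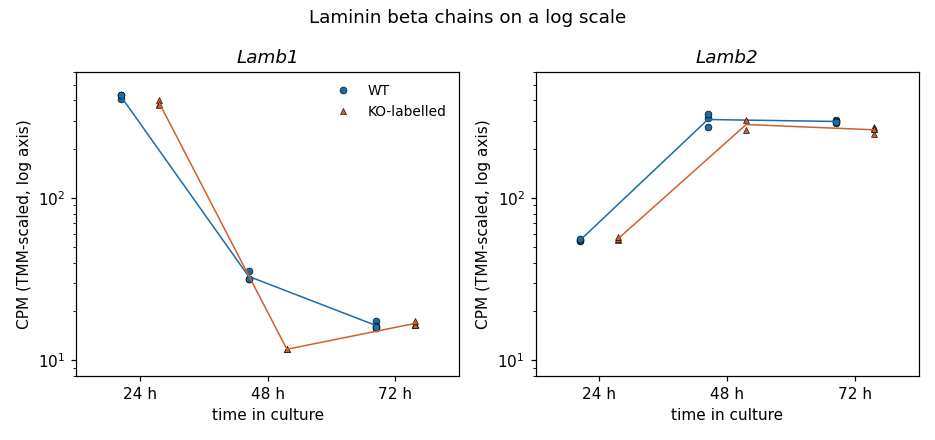
CPM of Lamb1 and Lamb2 on a log axis (8 to 600) at 24 h, 48 h and 72 h; each point is 1 library, circles WT and triangles KO-labelled, and lines join group means. Lamb1 at 48 h lies at 31.6 to 35.3 CPM in WT and at 11.6 to 11.7 CPM in KO-labelled libraries, while Lamb2 at 48 h lies at 275 to 329.5 CPM in WT and at 264 to 304 CPM in KO-labelled libraries.

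Lamc1, a gamma chain present in most laminins, was highest at 72 h. It lay at 138, 143 and 156 CPM, 138, 149 and 165 CPM and 178, 172, 178 and 192 CPM in WT libraries and at 134, 133 and 125 CPM, 129.8 and 138 CPM and 178, 180.2, 180.5 and 181 CPM in KO-labelled libraries. Its WT rise from 24 h to 72 h was 0.30 ± 0.050 (SE, adjusted p 2.97e-06), with no overlap, and it turned to -0.02 with scaling by library size alone. In KO-labelled libraries the rise was 0.46 ± 0.050 (SE, adjusted p 2.04e-09), also with no overlap.

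Lamc3, a rare gamma chain, peaked at 48 h, at low levels. WT libraries held 0.0703, 0.0432 and 0.0334 CPM, 3.27, 3.05 and 4.37 CPM and 0.822, 0.508, 0.617 and 0.742 CPM, and KO-labelled ones 0.0859, 0 and 0.196 CPM, 6.68 and 6.13 CPM and 1.19, 0.5004, 0.809 and 1.33 CPM. Over the libraries of a group, 263 counts in WT at 48 h stood against 4 in WT myoblasts, a ratio of 74.0 at equal depth (95% exact interval 28.5 to 273, counting error only). In KO-labelled libraries 242 counts stood against 9, a ratio of 68.3 (35.4 to 151). The 9 counts lay as 3, 0 and 6 in the libraries, and the ratio was 140 without KO-labelled myoblast replicate 3. Its transcripts ENSMUST00000028187 and ENSMUST00000138325 differed in share only through 1 WT myoblast library, where the gene had 1 count.

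**Figure D4:**
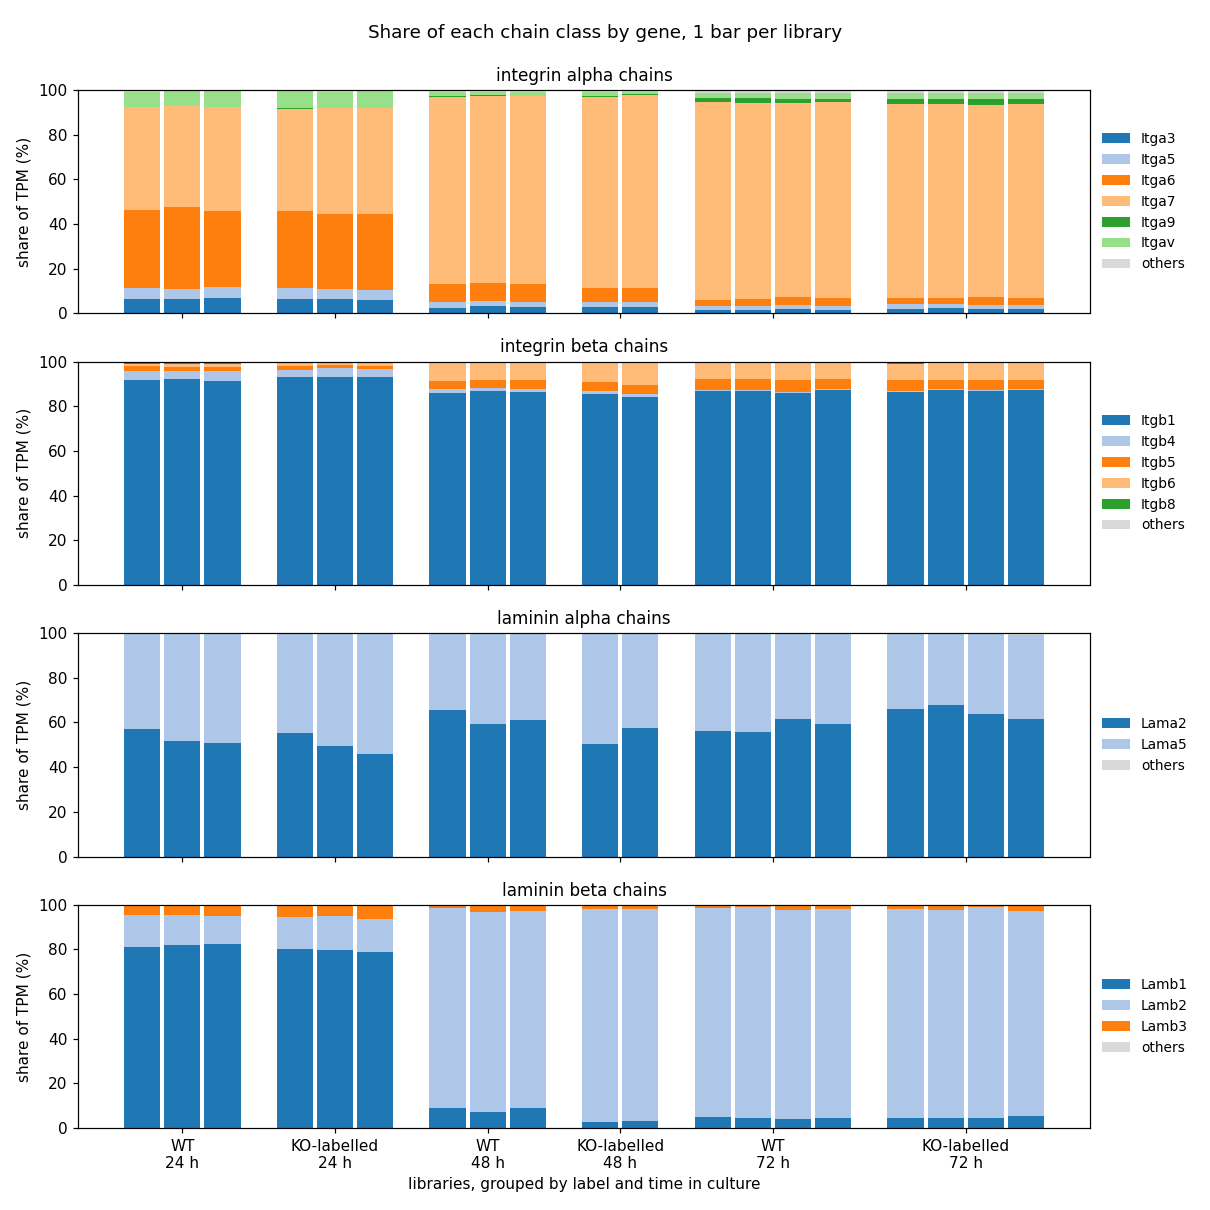
Share of summed TPM (percent, vertical axis 0 to 100) of each gene within the integrin alpha, integrin beta, laminin alpha and laminin beta classes, 1 bar per library, grouped by label and time in culture. Itga7 goes from 45.8% to 87.7% and Lamb2 from 13.5% to 93.7% of their classes between WT myoblasts and WT fused myotubes, while Itgb1 stays above 80% of the beta subunits.

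The label was compared at each stage in the same fit. In myoblasts 6 of the 26 members tested differed, with 6 lower and 0 higher values under the KO label. Among all genes 11.6% differed, 4.86% higher and 6.69% lower. The median log2 fold change was -0.07 over the members and 0.01 over all genes. Itgb8 had the largest difference of these 6, -0.85 ± 0.064 (SE, adjusted p 3.01e-10), or 23.7 ± 0.504 (SD, n = 3) against 13.1 ± 0.8289 (SD, n = 3) CPM. It was followed by Itgb5 (-0.37 ± 0.067 SE, adjusted p 0.000432) and Itgb4 (-0.30 ± 0.051 SE, adjusted p 0.000172). Differences for Lamc1 (-0.16 ± 0.052 SE, adjusted p 0.048), Itga5 (-0.15 ± 0.040 SE, adjusted p 0.0127) and Lamb1 (-0.13 ± 0.038 SE, adjusted p 0.0235) were smaller. Of the 7 skeletal muscle markers, 4 were also lower in these myoblasts without overlap: Myh3 lay at 210.4 to 233 CPM in WT and 112 to 119 CPM in KO-labelled libraries, Myog at 104 to 119 CPM and 64.6 to 82.5 CPM, Des at 703 to 786 CPM and 578 to 622 CPM, and Ckm at 1.86 to 2.77 CPM and 1.21 to 1.41 CPM. Among markers of other cell types, Rgs5 (36.6 to 40.8 and 31.3 to 33.7 CPM), Cspg4 (1.20 to 1.47 and 0.630 to 0.851 CPM) and Vwf (0.692 to 0.869 and 0.458 to 0.524 CPM) were lower without overlap. The part of these markers in the differences at 24 h was not tested.

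Differences between labels were widest in differentiated myotubes. There 10 members differed, of which 1 had higher and 9 lower values in the KO-labelled libraries. Among all genes 25.2% differed, 11% higher and 14.1% lower. The member median was -0.11 and that of all genes -0.01. Lamb1 led, with 32.9 ± 2.13 (SD, n = 3) CPM in WT and 11.7 ± 0.053 (SD, n = 2) CPM in KO-labelled libraries, a log2 fold change of -1.50 ± 0.074 (SE, adjusted p 3.52e-14). Itgb4 (-0.81 ± 0.077 SE, adjusted p 9.75e-09) and Itgb8 (-0.48 ± 0.092 SE, adjusted p 0.000294) were also lower, and the groups did not overlap for any of the 10. Of the 7 skeletal muscle markers, 3 were lower without overlap: Pax7 lay at 10.2 to 11.3 CPM in WT and 5.08 to 6.19 CPM in KO-labelled libraries, Myod1 at 769.8 to 869 CPM and 645 to 668 CPM, and Myf5 at 58.5 to 67.8 CPM and 55.1 to 55.2 CPM. The groups overlapped for the other 4, Myog (2364 to 2578 and 2334 to 2594 CPM), Ckm (123 to 141 and 136 to 138 CPM), Myh3 (14720 to 18076 and 15245 to 16697 CPM) and Des (2821 to 3088 and 2973 to 3327 CPM). Among markers of other cell types that reached 1 CPM in some group, Vwf (5.22 to 5.42 CPM in WT, 6.52 to 6.76 CPM in KO-labelled libraries) and Myh11 (0.479 to 0.598 and 1.02 to 1.62 CPM) were higher without overlap. Cspg4 (1.09 to 1.58 and 0.419 to 0.642 CPM) and Foxd3 (0.211 to 0.285 and 0.105 to 0.107 CPM) were lower without overlap. The part of all these markers in the label differences was not tested.

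Itga4, Itga6, Itgav, Itgb1, Lama2 and Lamc1 were lower by 0.17 to 0.39 on the log2 scale. For Lamc1 this turned to 0.09 with an offset for effective transcript length. The 1 member higher at 48 h was Lamc3 (0.83 ± 0.22 SE, adjusted p 0.00552). Itga7 (-0.01 ± 0.058 SE, adjusted p 0.966) and Lamb2 (-0.10 ± 0.059 SE, adjusted p 0.214) did not pass the test. The group of KO-labelled differentiated myotubes has only 2 libraries, and its spread is taken from the fit over all groups.

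In fused myotubes 5 members differed, 1 higher and 4 lower, where 13% of all genes differed, 6.32% higher and 6.72% lower. The medians were -0.03 over the members and -0.01 over all genes. The changes were small: Itga6 -0.26 ± 0.070 (SE, adjusted p 0.0131), Lama5 -0.20 ± 0.066 (SE, adjusted p 0.0426), Lamb2 -0.17 ± 0.046 (SE, adjusted p 0.012) and Itga7 -0.14 ± 0.045 (SE, adjusted p 0.0368) were lower. Itga9 was higher (0.21 ± 0.054 SE, adjusted p 0.00886). The groups overlapped for Itga6 and Lama5. Of the muscle markers at 72 h, Myh3 (13097 to 14852 CPM in WT, 12278 to 13027 CPM in KO-labelled libraries) and Myf5 (118 to 129 and 99.2 to 102 CPM) did not overlap between labels, and their part was not tested. Lamb1, Itgb4 and Itgb8, which were called at earlier stages, did not pass at 72 h, with log2 fold changes of 0.04 ± 0.060 (SE, adjusted p 0.768), 0.03 ± 0.080 (SE, adjusted p 0.848) and -0.04 ± 0.066 (SE, adjusted p 0.751). By TPM, Lama2 made up 64.9% ± 2.71 (SD, n = 4) of the alpha chains under the KO label against 58.2% ± 2.64 (SD, n = 4) under WT, without overlap. This difference of 6.63 percentage points had a p of 0.0286, the smallest that 4 against 4 libraries can give, and an adjusted p of 0.0857 over 6 shares compared (exact two-sided permutation test). With counts per length it was 3.56 percentage points (adjusted p 0.0429), and over coding transcripts of at least 1000 bases 3.67 (adjusted p 0.0571).

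**Figure D5:**
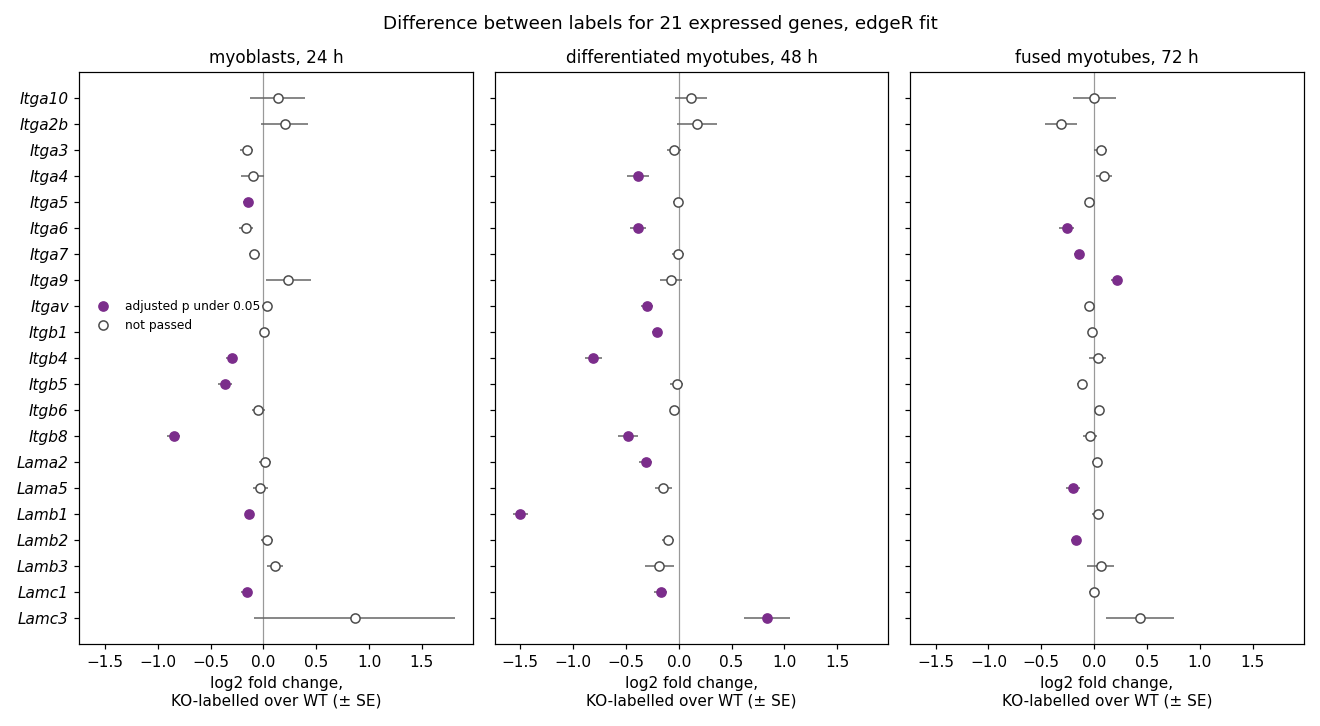
Log2 fold change of KO-labelled over WT libraries with its standard error for the 21 expressed genes in myoblasts, differentiated myotubes and fused myotubes; filled points passed the adjusted p threshold of 0.05 and open points did not. Lamb1 at 48 h (-1.50) is the lowest point, and most points at 72 h lie near 0.

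These label calls differed in how far they depended on single libraries and on the handling of transcript length. Calls for Lamb1 at 48 h, Itgb8 at 24 h and 48 h, Itgb4 at 48 h, Itgb5 at 24 h, and Itga6, Itgb1 and Lama2 at 48 h passed in every alternative run. With an offset for effective transcript length, 2 members in myoblasts, 6 at 48 h and 1 in fused myotubes passed. The same offset lowered the calls among all genes from 1747 to 591, from 3810 to 2143 and from 1972 to 820. Leaving out KO-labelled myoblast replicate 2 lowered the 6 in myoblasts to 3, and the 1747 among all genes to 1197. For fused myotubes, dropping replicate 1 of WT, or replicate 1 or 2 of the KO-labelled group, lowered the 5 to 3, and the 1972 among all genes to 1384, 1465 and 1431. Dropping WT fused replicate 4 left 2, with 1517 among all genes, and dropping KO-labelled fused replicate 3 left 1, with 1477. The differences for Lamc1 in myoblasts and at 48 h, Lamb1 in myoblasts, and Itga7 and Lama5 in fused myotubes were lost in 5 to 8 alternatives each.

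Whether the label difference itself changed with the stage was tested by the interaction of label and stage. Of the 26 members 8 passed, beside 25.5% of all genes tested: Lamb1 (adjusted p 6.15e-12), Itgb8 (1.1e-06), Itgb4 (8.71e-06), Lama2 (0.00444), Itgav (0.00517), Itgb5 (0.0141), Itgb1 (0.016) and Itga4 (0.0199). With the length offset 5 of the 26 passed, and the calls among all genes went from 3853 to 1801.

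The other genes of the adhesion system were read from lists of partners. The lists were chosen with earlier results of these data known, so their counts beside all genes are description only. Of 15 basement membrane partners of laminin, 11 were tested and 11 differed between WT myoblasts and WT fused myotubes, 3 higher and 8 lower, where 85.5% of all genes differed, 42.2% higher and 43.4% lower. Their median log2 fold change was -2.28 (all genes -0.01). The collagen IV chain Col4a1 fell from 844 ± 18.2 (SD, n = 3) to 15.9 ± 0.425 (SD, n = 4) CPM, -5.73 ± 0.065 (SE, adjusted p 3.06e-31) on the log2 scale, and Col18a1 fell by 5.61 ± 0.067 on the log2 scale (SE, adjusted p 9.71e-31). Perlecan (Hspg2), a proteoglycan that binds laminin, rose by 0.71 ± 0.091 (SE, adjusted p 5.63e-08). Between labels at 48 h, 7 of the 11 differed, 1 higher and 6 lower, beside 25.2% of all genes. Col4a1 (-1.50 ± 0.072 SE, adjusted p 1.7e-14) and Col18a1 (-1.45 ± 0.095 SE, adjusted p 1.11e-11) differed most, and as for Lamb1 their KO-labelled values were the lower ones. At 72 h Col4a1 (0.44 ± 0.079 SE, adjusted p 0.000356) and Col4a2 (0.56 ± 0.077 SE, adjusted p 1.11e-05) were higher in KO-labelled libraries.

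Most ligands of integrins other than laminin fell. Of 13 tested among 16 listed, 11 differed between WT 72 h and 24 h, 2 higher and 9 lower, beside the same 85.5% of all genes, 43.4% lower (median -2.44, all genes -0.01). Tenascin-C (Tnc) fell by 7.32 ± 0.089 on the log2 scale (SE, adjusted p 1.27e-30), fibronectin (Fn1) fell by 6.21 ± 0.098 on the log2 scale (SE, adjusted p 3.39e-28), and nephronectin (Npnt), a ligand of the alpha 8 subunit, rose by 1.16 ± 0.039 (SE, adjusted p 1.31e-20). At 48 h 9 of the 13 were lower in KO-labelled libraries and 0 higher, beside 14.1% of all genes that were lower. Tnc (-2.75 ± 0.18 SE, adjusted p 1.43e-11) and Fbn1 (-2.28 ± 0.27 SE, adjusted p 4.63e-07) differed most. In myoblasts Tnc was higher in KO-labelled libraries (0.46 ± 0.051 SE, adjusted p 3.74e-07).

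The 7 other laminin receptors listed all changed in WT from 24 h to 72 h, 2 higher and 5 lower, where 85.5% of all genes changed. Dystroglycan (Dag1), the laminin receptor of the dystrophin complex, rose from 192 ± 4.75 (SD, n = 3) to 1742 ± 30.3 (SD, n = 4) CPM. Bcam, which binds the laminin alpha 5 chain, rose from 4.68 ± 0.190 (SD, n = 3) to 226 ± 8.27 (SD, n = 4) CPM. The syndecans Sdc1 (-3.84 ± 0.064 SE, adjusted p 1.28e-27) and Sdc3 (-4.08 ± 0.057 SE, adjusted p 2.63e-29) fell. Of the 23 integrin activators and adaptors tested, 9 rose and 11 fell, again near the 85.5% of all genes, with a median of -0.05. Melusin (Itgb1bp2), a muscle protein that binds the beta 1 tail, rose from 5.36 ± 0.379 (SD, n = 3) to 269.6 ± 8.53 (SD, n = 4) CPM. Between labels it was lower in KO-labelled myoblasts (-0.59 ± 0.10 SE, adjusted p 0.000252) and higher at 48 h (0.18 ± 0.046 SE, adjusted p 0.00498). The talin gene Tln2 was lower in KO-labelled myoblasts (-0.56 ± 0.046 SE, adjusted p 1.23e-09) and at 48 h (-0.76 ± 0.062 SE, adjusted p 6.9e-10).

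Among 5 integrin alpha genes named by letter and so outside the rule, Itgam, known as a leukocyte subunit that pairs with beta 2, was the exception to low levels. It lay at 0.211, 0.216 and 0.234 CPM in WT myoblasts, 14.9, 17.3 and 15.03 CPM at 48 h and 8.22, 9.96, 8.39 and 9.73 CPM at 72 h. KO-labelled libraries held 0.143, 0.164 and 0.0982 CPM, 27.2 and 23.5 CPM and 8.53, 9.12, 8.81 and 8.66 CPM. Every myotube library lay above every myoblast library, with a WT log2 fold change to 48 h of 6.12 ± 0.16 (SE, adjusted p 7.11e-23), and both KO-labelled libraries at 48 h lay above the WT ones (0.69 ± 0.086 SE, adjusted p 9.95e-07). Its estimated counts sat on protein-coding transcripts, with the non-coding ones listed at 0. Its usual partner Itgb2 had at most 5 counts in a library. The 5 leukocyte markers summed to 1.05 to 1.78 CPM in myoblasts, 0.617 to 1.13 CPM at 48 h and 0.251 to 0.678 CPM at 72 h. Cd68, the one of them at 1 CPM or more, lay at 1.01 to 1.58 CPM, 0.474 to 0.802 CPM and 0 to 0.3996 CPM, and Cd74 and Csf1r had 3 counts or fewer in every library. Adgre1 was at 0 in all myoblast libraries and reached 0.247 CPM at 72 h, and Ptprc reached 0.143 CPM in myoblasts and 0.305 CPM at 48 h.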

How the data were processed

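Transcript abundances of 19 libraries were analysed. Per the file headers each deposited file is a kallisto table, in which the authors gave estimated counts (expected counts that need not be whole), TPM, length and effective length for each transcript. Per the submitters' processing notes, bcl2fastq 2.20, fastp 0.20.0, kallisto 0.46.1 and edgeR 3.36 were used with GRCm38.p6; their settings are not given in the sources used here.

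Transcripts were assigned to genes by GENCODE M21. Of 121843 transcripts 121018 matched, and the 825 unmatched held 0.255% to 0.507% of a library's counts. Estimated counts were summed per gene and rounded. The 15123 genes that passed filterByExpr entered one edgeR 4.0.16 quasi-likelihood fit with TMM scaling and 6 group terms, and p-values were adjusted by Benjamini-Hochberg over these genes. Shares within the integrin alpha and beta and laminin alpha and beta classes used deposited TPM and exact two-sided permutation tests. The procedure was tested on simulated data. Values in every library are given for members with a mean of at least 5 CPM in some group and a called log2 fold change of at least 1 between WT stages or 0.5 between labels, and for Itga7, Itgb1, Lama2, Lamb1 and Lamc1. Partner genes were named by the largest changes in each direction per list. The pairs of Itga7, Itgb1 and Lamb1 transcripts were named after their values were seen. Transcripts were named where their share differed by at least 20 percentage points between WT fused myotubes and WT myoblasts, or 10 between labels in fused myotubes. Alternatives were other scalings, filters and a DESeq2 test, an effective-length offset, a replicate block, and leaving out each library. Members and lists were chosen with earlier results of these data known. A gene that the naming rule finds is not reported or counted here.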

Additional observations from a re-analysis of the deposited data

Results flagged for a closer look

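For 8 of the 26 members tested the difference between labels itself differed between the 3 stages, by the test of label and stage together (edgeR quasi-likelihood test, adjusted over all genes). Of all genes tested 25.5% passed. The adjusted p was 6.148e-12 for Lamb1, 1.099e-06 for Itgb8, 8.708e-06 for Itgb4, 0.00444 for Lama2, 0.005175 for Itgav, 0.01406 for Itgb5, 0.01597 for Itgb1 and 0.01988 for Itga4. Lamb1, Itgb8, Itgb4 and Lama2 passed in all 26 alternatives. Itga4 was lost in 3, with an adjusted p up to 0.134, Itgav and Itgb5 in 2 each, and Itgb1 in 1. Without KO-labelled differentiated replicate 1 Itga4 and Itgb1 did not pass, and without replicate 2 of that group Itga4 and Itgav did not. Itgb5 did not pass without WT myoblast replicate 3. For the 21 expressed members, Dixon's test flagged no library in the WT or the KO-labelled fused group, the 2 groups of 4 libraries (42 sets of values). With 4 libraries that test can flag only a wide gap, so smaller departures are not excluded. The groups at 24 h and 48 h hold 2 or 3 libraries, and this was not checked in them.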

How the results depend on the processing

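In the 6 stage comparisons the number of members called stayed within 1.5 times of the reported one in every alternative. With an offset for effective transcript length the members called between labels numbered 2 in myoblasts, 6 at 48 h and 1 in fused myotubes, with 5 for the interaction, and leaving out 1 library gave 3 to 6, 7 to 12, 1 to 5 and, for the interaction, 6 to 10. All genes called between labels in myoblasts went from 1747 to 591 with the offset, to 2625 with only the compared libraries, and to 925, 1144 and 1067 without WT myoblast replicate 3, KO-labelled myoblast replicate 1 and KO-labelled myoblast replicate 3. With the offset they went from 3810 to 2143 at 48 h, from 1972 to 820 at 72 h and from 3853 to 1801 for the interaction. With the replicate block the members called were 20, 20, 23, 20, 18, 24, 6, 9, 5 and 8 in turn for WT 24 h to 48 h, 48 h to 72 h and 24 h to 72 h, the same in KO-labelled libraries, the labels at 24 h, 48 h and 72 h, and the interaction. The shares of all genes called without the block were, in that order, 85%, 75.1%, 85.5%, 83.7%, 70.2%, 87.2%, 11.6%, 25.2%, 13% and 25.5%. Those under the block are not given, so these counts describe the stability of the calls only. Libraries with the same number did not deviate together (correlations -0.0536 to 0.0563 over 41 pairs, 0 above 0.1), so the numbers were not taken as pairs.

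Scaling by library size alone reversed Itga5 (-0.053) and Itgb1 (-0.11) from 24 h to 48 h in WT, Lamc1 (-0.017) from 24 h to 72 h in WT and Itgb8 (-0.18) from 24 h to 72 h in KO-labelled libraries, while the median of all genes moved to -0.23 and -0.33 in WT. The offset reversed Itgb1 from 24 h to 72 h (0.16 in WT, 0.13 in KO-labelled libraries), Lamb3 from 48 h to 72 h in KO-labelled libraries (0.029) and Lamc1 between labels at 48 h (0.090). The cause was not tested.

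Shares of a class passed in places where they did not by TPM. With CPM, and with counts per length (an alternative added after the data were seen), the differences between WT 72 h and 24 h in percentage points were 10.9 and 10.3 for Lama2 and -11.1 and -10.5 for Lama5 (adjusted p 0.0286, exact permutation test). Over the TPM of coding transcripts of at least 1000 bases, also added after the data were seen, they were 8.99 and -9.09 (adjusted p 0.0286). Between labels at 72 h, with counts per length, they were 3.56 for Lama2, -3.50 for Lama5, -1.12 for Lamb2 and 0.352 for Itgb6 (adjusted p 0.0429). By TPM Lama2 and Lama5 differed by more, 6.63 and -6.62, with an adjusted p of 0.0857. Members under 1 CPM and Lamc3 in myoblasts are limited by depth.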
